A study of Homo sapiens with 12 samples.

Results

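The multidrug ABC transporters described here were 7 genes, ABCB1, ABCC1, ABCC2, ABCC3, ABCC4, ABCC5 and ABCG2, found by symbol among the 60675 gene IDs of the count table, each at a single ID. All 7 were among the 15374 genes that could be tested. They were chosen by gene family and with their CPM in all 4 groups already in view, so their levels, fold changes and standing against the thresholds are given as a description, and no p-value is given for any of them. The cells were HT29, a human colorectal adenocarcinoma line, and RNA was sequenced after 24 h in 4 groups of 3 libraries. The vehicle group received PBS with 2% DMSO, which is the strength of the solution added and not that in the medium. The other groups received a water extract of Aconitum carmichaeli Debeaux (ACD, an aconite) at 20 (low dose), 100 (medium dose) or 500 µg/mL (high dose). By the authors' methods, the ACD extract was taken up in the same solvent. The preparation note of the series describes the fungus Poria cocos, whereas the titles and the treatment field name ACD, and the grouping follows the latter. No source says that the 3 libraries of a group came from separate cultures, so p-values given for other genes measure only the spread between these libraries.

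ABC transporters are membrane pumps that hydrolyse ATP to move substrates across membranes, and the members of the B, C and G subfamilies gathered here export drugs, their conjugates and bile acids from cells. In the intestine, ABCB1, ABCG2 and ABCC2 sit in the apical membrane and pump compounds back into the lumen, whereas ABCC3 sits in the basolateral membrane and passes conjugates towards the blood. Several of their genes are known to respond to receptors that sense foreign compounds or electrophiles, such as AhR, PXR and NRF2.

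Promoter sequence was taken from RefSeq (GRCh38.p14), where 5 of the 7 genes were found. The promoters of ABCC1 and ABCC3 were not analysed here. Over the 250 bases before each start, on both strands, 2 short sequences were counted, namely GCGTG, the core bound by AhR with ARNT, and TGACNNNGC, the core of the antioxidant response element bound by NRF2. The former was found in 32.2% and the latter in 10.9% of 34788 promoter windows of the same length. The pair below shows the gene with the largest fold change, ABCC2 (chr10:99782390-99782615, plus strand), and ABCC4 (chr13:95301476-95301701, minus strand). Libraries of ABCC4, like those of ABCC5, overlapped those of the vehicle at every dose. Each stretch runs 5′ to 3′ from 250 to 25 bases before the start of the canonical transcript, holds no annotated exon, and has matches in capitals.
ABCC2: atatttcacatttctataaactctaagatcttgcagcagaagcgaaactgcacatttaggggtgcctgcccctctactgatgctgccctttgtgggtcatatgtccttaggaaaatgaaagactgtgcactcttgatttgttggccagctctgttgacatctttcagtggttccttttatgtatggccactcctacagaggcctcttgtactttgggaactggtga
ABCC4: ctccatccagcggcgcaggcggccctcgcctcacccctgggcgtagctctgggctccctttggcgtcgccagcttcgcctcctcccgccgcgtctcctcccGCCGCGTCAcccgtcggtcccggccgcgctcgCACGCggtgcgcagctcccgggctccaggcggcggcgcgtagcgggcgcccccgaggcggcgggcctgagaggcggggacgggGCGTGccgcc
The ABCC2 window held neither sequence, and the ABCC4 window held GCGTG 2 times and TGACNNNGC 1 time. At their canonical starts, ABCB1 held GCGTG 1 time, ABCG2 held it 2 times and ABCC5 held none, and none of these 3 windows held TGACNNNGC. The 250-base windows of ABCC2 and ABCC4 had 45.6% and 80.4% GC, and no background matched for GC was counted. Any link between matches and fold changes was not tested. A match describes letters in these windows and no binding was measured.

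Levels were first compared between the genes within the vehicle group, as CPM (counts scaled to a common library size) per kilobase of the canonical transcript. ABCC3 was the most abundant at 78.2 ± 4.39 CPM per kb (SD, n = 3), higher than 94.2% of the 15196 tested genes with a known length. ABCG2 followed at 17.9 ± 0.94, ABCC4 at 15.2 ± 2.03 and ABCC1 at 14.9 ± 1.01 CPM per kb, each higher than 70.7% to 74.7% of the tested genes. ABCC5, which exports cyclic nucleotides, lay at 2.13 ± 0.19 CPM per kb. ABCB1 at 0.163 ± 0.020 and ABCC2 at 0.128 ± 0.049 CPM per kb were near the floor of the tested genes, higher than 3.48% and 2.45% of them. The transcript of a basolateral exporter was thus the most abundant, and among the apical pumps that of ABCG2 lay far above those of ABCB1 and ABCC2. The vehicle libraries of ABCC4 and ABCC1 overlapped, as did those of ABCB1 and ABCC2, so the order inside these pairs is not resolved. ABCC3 lay 4.25 to 4.64 times above ABCG2, the next gene, in the vehicle libraries.

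**Figure D1:**
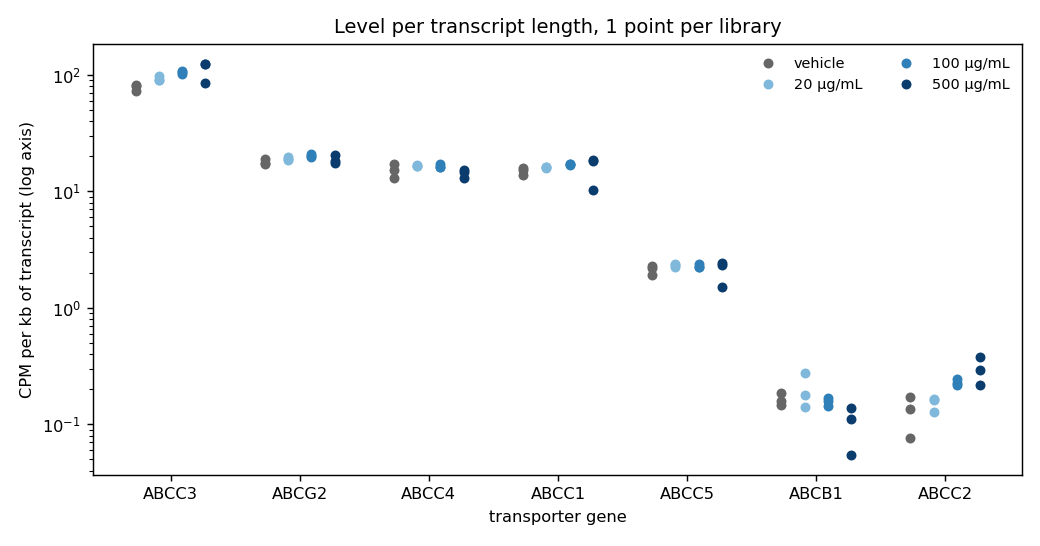
Level of each transporter gene per transcript length (CPM per kb, log axis), with 1 point per library and the groups side by side from vehicle to 500 µg/mL. ABCC3 is the highest in all 12 libraries and ABCB1 and ABCC2 are the lowest, with ABCC2 above ABCB1 in every medium-dose and high-dose library.

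High-dose replicate 2 stood apart from the other libraries before any group was compared. It had the lowest total, 15941255 expected counts, where the 12 libraries ran up to 33866644 with a median of 23833237. Over 10621 genes, its log2 values differed from the rest of its group with an SD of 0.50, against 0.10 to 0.29 for the other 11. Mitochondrial genes took 14.0% to 16.6% of the counts in the high-dose libraries and 7.41% to 11.1% in all others, and their part in the results was not tested. All 10 colon epithelium markers could be tested, with a sum of 10540 to 12840 CPM over the libraries. Most of this sum came from the keratins KRT8 and KRT18, with medians of 6396 and 3398 CPM. LGALS4, EPCAM, KRT20 and VIL1 had medians of 548, 520.5, 248 and 169 CPM. The medians of CEACAM5, CDX2, CDH17 and CDX1 were only 6.53, 6.08, 5.98 and 1.21 CPM. The 7 leukocyte markers summed to 15.0 to 17.7 CPM at the high dose and 11.6 to 13.6 CPM elsewhere, with MS4A1 at 0 and PTPRC and CD3E at no more than 0.123 CPM. Nearly all of it came from CD68, CD14 and ITGAM, with medians of 8.42, 3.18 and 1.84 CPM. The 6 fibroblast markers summed to 1.54 to 2.27 CPM in the vehicle, 1.97 to 2.40 at the low, 2.35 to 2.66 at the medium and 2.43 to 2.90 CPM at the high dose, with COL1A2 at 0 throughout. Here nearly all came from COL1A1 and LUM, with medians of 1.265 and 0.990 CPM. The part of these markers in the results was not tested.

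Over the whole table, differentially expressed genes (DEGs) had a Benjamini–Hochberg adjusted p under 0.05 in edgeR's quasi-likelihood test and a fold change over 1.5. At the high dose 1 of the 7 transporters, ABCC2, was past these thresholds, upward, beside 2.93% of all genes tested (1.26% upregulated). None was past them, with edgeR or DESeq2, at the medium dose, where 0.676% of all genes were in edgeR, or at the low dose, where 0.111% were. All 3 libraries lay above every vehicle library for 2 transporters at the high dose (ABCC2, ABCC3), 4 at the medium dose (ABCC1, ABCC2, ABCC3, ABCG2) and 1 at the low dose (ABCC3), beside 10.5%, 14.6% and 11.4% of all genes. All 3 lay below for 1 transporter, ABCB1, at the high dose, beside 11.5% of all genes. The median log2 fold change over the 7 was 0.06 at the high, 0.18 at the medium and 0.13 at the low dose, where the median of all genes was 0.01, −0.01 and 0.00. The doses share their vehicle libraries, so these counts are not independent of each other.

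**Figure D2:**
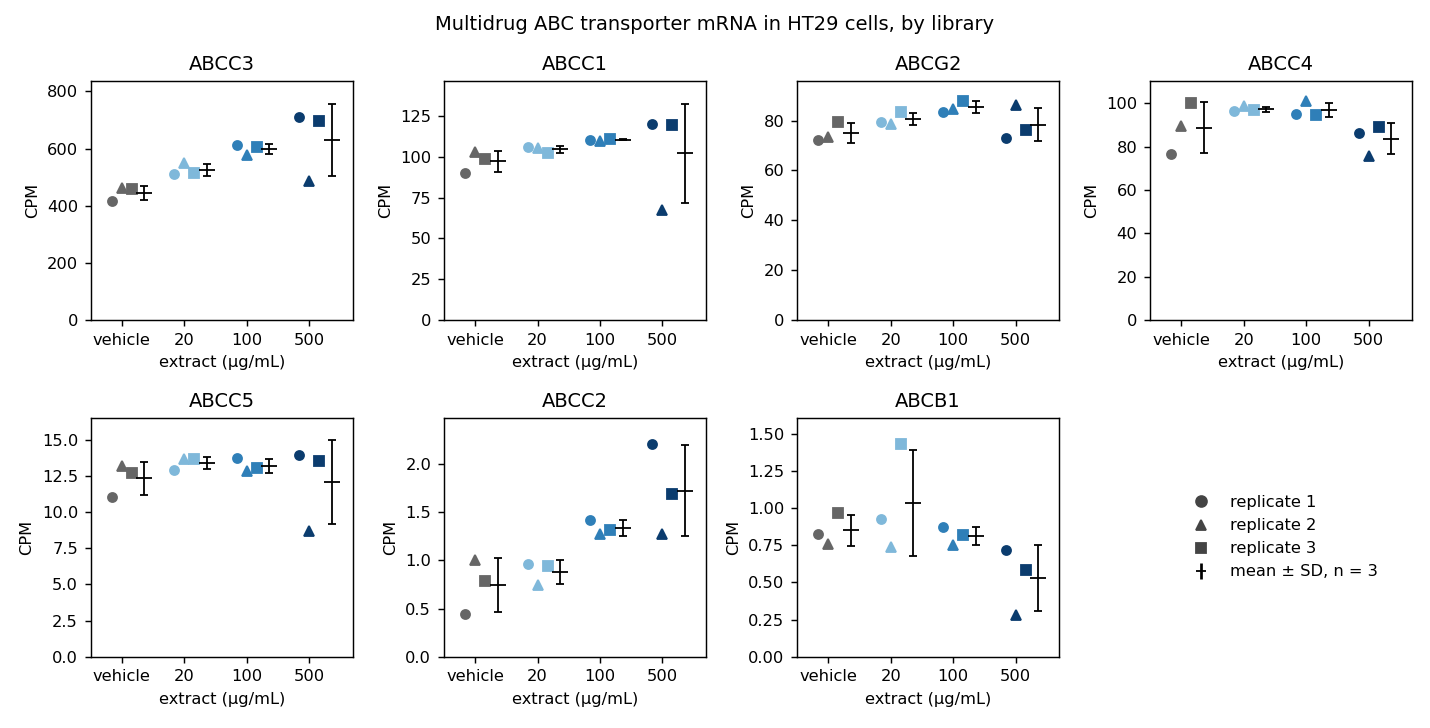
CPM of each transporter gene in each library, from vehicle to 500 µg/mL, with marker shape for the replicate number and a bar for the mean ± SD (n = 3). The group means of ABCC2 and ABCC3 are higher at each dose than at the one before, with medium-dose and high-dose libraries overlapping, and high-dose replicate 2 (triangle) lies below the other high-dose libraries in every panel except that of ABCG2.

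The apical pump ABCC2 (MRP2, ENSG00000023839, chr10:99782640-99852594, plus strand), which exports glucuronide and glutathione conjugates into bile and the gut lumen, had the largest fold change at the high dose. Its levels were 0.440, 0.999 and 0.790 CPM in the vehicle libraries and 0.961, 0.739 and 0.939 at the low dose. The medium-dose libraries held 1.42, 1.27 and 1.31 CPM, and those of the high dose 2.20, 1.27 and 1.69 CPM. The low-dose libraries lay within the vehicle range, and those of both higher doses lay above it. The log2 fold change over vehicle was 0.18 ± 0.29 (SE) at the low, 0.77 ± 0.27 at the medium and 1.17 ± 0.27 at the high dose, the last a fold of 2.25. The step from low to medium was 0.60 ± 0.27 and that from medium to high 0.39 ± 0.25 on the log2 scale. Medium-dose and high-dose libraries overlapped, and neither step was tested.

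These ABCC2 levels rest on few reads. The vehicle libraries held 8, 33 and 18 counts, the low-dose libraries 28, 21 and 21, the medium-dose libraries 31, 39 and 32 and the high-dose libraries 49, 18 and 55. The 8 counts of vehicle replicate 1 have a 95% exact Poisson interval of 3.45 to 15.8, which covers counting error only. Summed over a group, ABCC2 had 59, 70, 102 and 122 counts from vehicle to high dose. Without high-dose replicate 2, ABCC2 was past the thresholds (1.30 ± 0.27), as were 768 of the 15674 genes tested in that fit. It was no longer past them without vehicle replicate 1 (0.95 ± 0.25) or vehicle replicate 3 (1.19 ± 0.32). Nor was it past them without high-dose replicate 1 (0.97 ± 0.29) or high-dose replicate 3 (1.20 ± 0.32). It was also not past them when the vehicle and high-dose libraries were fitted alone, with edgeR (1.17 ± 0.34) or DESeq2 (1.20 ± 0.44), and a filter of at least 10 counts in every library left it out.

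ABCC3 (MRP3, ENSG00000108846, chr17:50634777-50692253, plus strand), the basolateral exporter of glucuronides and bile salts, had the next largest increase and by far the deepest counts. The vehicle libraries held 417, 462 and 458 CPM, and those of the low dose 512, 551 and 516 CPM. The medium-dose libraries held 613, 579 and 604 CPM, and those of the high dose 710, 485 and 698 CPM. Every treated library lay above every vehicle library, although the high-dose replicate 2 value of 485 CPM was below all low-dose values. The log2 fold change was 0.24 ± 0.12 (SE) at the low, 0.43 ± 0.12 at the medium and 0.50 ± 0.12 at the high dose, the last a fold of 1.42 and so under the minimum. With no minimum fold change, ABCC3 was counted beside ABCC2 at the high dose, where 5.77% of all genes were. Without high-dose replicate 2 the log2 fold change of ABCC3 was 0.66 ± 0.06, a fold of 1.58. ABCC3 was then past both thresholds, as were 768 of the 15674 genes tested in that fit. With all libraries, 451 of 15374 genes were. Group means of ABCC2 and ABCC3 rose at each step from vehicle to high dose, as did those of 8.97% of all genes.

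Within the summed per-length level of the 7 genes, ABCC3 made up 60.9% ± 0.77 (SD, n = 3) in the vehicle group, 62.9% at the low, 65.1% at the medium and 68.2% ± 2.59 at the high dose. In high-dose replicates 1 and 3 it lay 6.77 and 6.70 times above the next gene, which was then ABCC1 in place of ABCG2. In high-dose replicate 2 this ratio was 4.16, with ABCG2 next. The low end of the order differed too. ABCB1 was above ABCC2 in vehicle replicates 1 and 3 and in all low-dose libraries, and ABCC2 was above ABCB1 in vehicle replicate 2 and in all medium-dose and high-dose libraries.

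ABCC1 (MRP1, ENSG00000103222, chr16:15949138-16143257, plus strand), a basolateral exporter of glutathione conjugates and leukotrienes, was at 90.0, 103 and 98.3 CPM in the vehicle libraries. The low-dose libraries held 106, 105 and 102 CPM, the medium-dose libraries 111, 110 and 111 CPM and the high-dose libraries 120, 67.1 and 119 CPM. The medium-dose libraries lay above the vehicle range and within 1 CPM of each other, whereas those of the high dose lay on both sides of it. The log2 fold change was 0.11, 0.18 and 0.07 from low to high dose, each ± 0.16 (SE). Without high-dose replicate 2 the high-dose value was 0.30 ± 0.06, a fold of 1.23.

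ABCC4 (MRP4, ENSG00000125257, chr13:95019835-95301475, minus strand), an exporter of cyclic nucleotides and prostaglandins, was at 76.6, 89.3 and 100.3 CPM in the vehicle libraries. The low-dose libraries held 96.3, 98.6 and 96.9 CPM, the medium-dose libraries 95.1, 100.8 and 94.6 CPM and the high-dose libraries 86.3, 75.7 and 88.9 CPM. The groups overlapped at every dose, with log2 fold changes of 0.13, 0.13 and −0.08 from low to high, each ± 0.09 (SE). The difference of the high from the medium dose was −0.21 ± 0.09 on the log2 scale and was not tested. ABCC5 (MRP5, ENSG00000114770, chr3:183919934-184017939, minus strand) was at 11.1, 13.2 and 12.7 CPM in the vehicle libraries and at 13.9, 8.70 and 13.5 CPM at the high dose, with 12.9 to 13.6 CPM at the low and 12.9 to 13.8 CPM at the medium dose. Its libraries overlapped those of the vehicle at all doses, and its log2 fold changes were 0.11, 0.09 and −0.02, each ± 0.14 (SE), with 0.15 ± 0.09 at the high dose without high-dose replicate 2.

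ABCG2 (BCRP, ENSG00000118777, chr4:88090150-88231628, minus strand), the apical pump for sulfate conjugates, urate and many drugs, was at 72.3, 73.5 and 79.6 CPM in the vehicle libraries. Under treatment, the low-dose libraries held 79.6, 78.8 and 83.4 CPM, the medium-dose libraries 83.3, 84.7 and 87.9 CPM and the high-dose libraries 73.1, 86.1 and 76.0 CPM. The medium-dose libraries lay above the vehicle range, and the other groups overlapped it. The log2 fold change was 0.10, 0.18 and 0.06 from low to high dose, each ± 0.07 (SE). ABCG2 was the only transporter with its highest high-dose value in replicate 2.

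ABCB1 (MDR1 or P-glycoprotein, ENSG00000085563, chr7:87503017-87713323, minus strand), the apical pump of bulky lipophilic drugs, was barely detected. The vehicle libraries held 0.825, 0.757 and 0.966 CPM and those of the low dose 0.927, 0.739 and 1.43 CPM. Levels of 0.872, 0.750 and 0.818 CPM were found at the medium dose, against 0.720, 0.283 and 0.584 CPM at the high dose. The high-dose libraries all lay below the vehicle range, by a margin of 0.720 against 0.757 CPM at the closest. The counts behind these levels were 15, 25 and 22 in the vehicle and 16, 4 and 19 in the high-dose libraries. The log2 fold change was 0.27 ± 0.29 (SE) at the low, −0.06 ± 0.30 at the medium and −0.60 ± 0.32 at the high dose, the last −0.39 ± 0.32 without high-dose replicate 2. These few counts leave the high-dose value uncertain. In bulk RNA, fewer cells with a transcript and less of it per cell cannot be told apart.

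**Figure D3:**
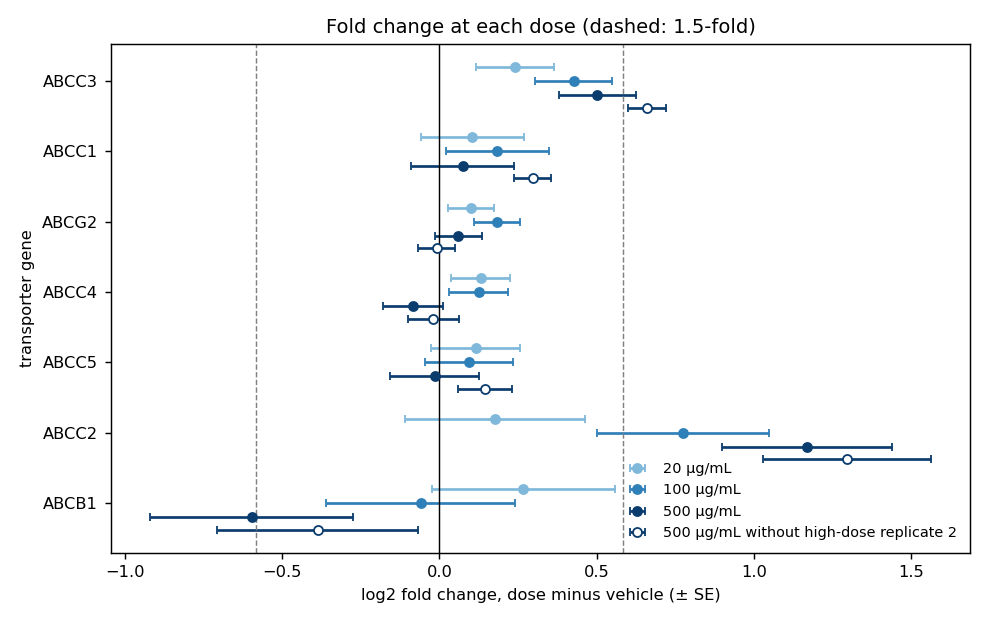
Log2 fold change over vehicle (± SE) of each transporter gene at each dose in the fit of all libraries, with open points for the high dose fitted without high-dose replicate 2 and dashed lines at 1.5-fold. ABCC2 lies at 1.17 and ABCC3 at 0.50 at the high dose, and leaving out the library moves ABCC3 to 0.66, past the line.

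High-dose replicate 2 lay outside the range of the other high-dose libraries for all 7 genes. Relative to the mean of the other high-dose libraries, its log2 CPM differed by −1.01 for ABCB1, −0.83 for ABCC1, −0.65 for ABCC5, −0.57 for ABCC2, −0.54 for ABCC3, −0.21 for ABCC4 and 0.21 for ABCG2. Over the 10584 genes above 5 CPM, the same difference correlated with log2 transcript length (Pearson r = −0.54) and with GC content (r = −0.28) across genes, which are not independent replicates. Among transcripts over 4 kb, as all 7 are, its median was −0.08 for the 2184 with at most 45% GC, −0.39 for the 1269 from 45% to 55% and −0.58 for the 726 above 55%. ABCG2, at 39.2% GC and the shortest of the 7, lay above the other libraries, and ABCC3 (55.7%) lay near the median for its GC content. The other 5, ABCC1 (54.9%), ABCC5 (50.6%), ABCC2 (44.9%, on 18 counts), ABCC4 (42.6%) and ABCB1 (40.8%, on 4 counts), lay further below the other libraries than the medians for their GC content. Those medians came from genes above 5 CPM. ABCC2 and ABCB1 lay below that level in every library, so for them the medians are not from genes of like level. The part of length and GC content in the fold changes was examined only through an offset for both, under which ABCC2 was at 1.20 ± 0.25 and past the thresholds. Under the same offset, chosen after seeing the data, ABCC3 was at 0.53 ± 0.04 and ABCC1 at 0.09 ± 0.07, both under the minimum fold.

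**Figure D4:**
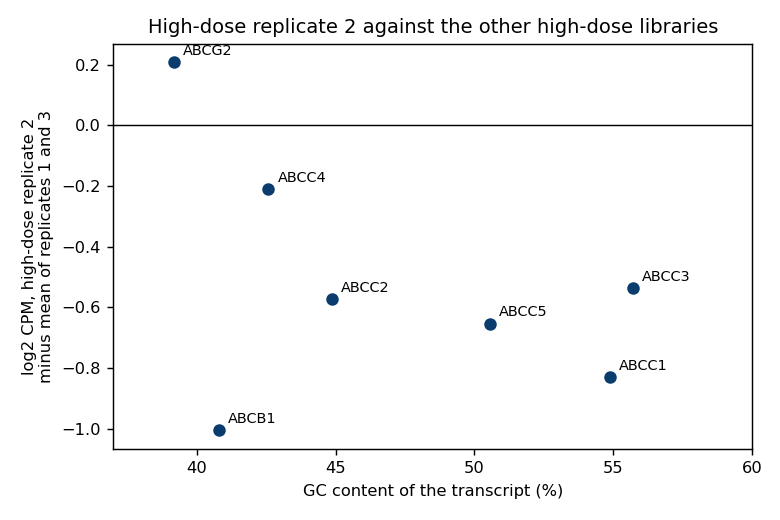
Difference in log2 CPM between high-dose replicate 2 and the mean of high-dose replicates 1 and 3, against the GC content of the canonical transcript (%), 1 point per transporter gene. The 6 genes other than ABCG2 lie below 0, from −0.21 for ABCC4 to −1.01 for ABCB1.

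Libraries in which one transporter was high were compared with those of the others by Pearson correlation of log2 CPM, which follows the groups and is given without a p. ABCC2 and ABCC3 were at r = 0.85 over 12 libraries and 0.90 over 11 without high-dose replicate 2, which was not the highest pair in either set. The highest over 12 libraries was that of ABCC1 and ABCC5 (0.945, and 0.77 over 11). ABCC1 and ABCC3 were at 0.66 over 12 and 0.96 over 11, and ABCC1 and ABCC2 at 0.38 and 0.955. ABCC1 and ABCB1 changed from 0.55 to −0.46, so several of these values rest on high-dose replicate 2. Among the 13139 genes with a mean of at least 1 CPM, CAPRIN2 (r = 0.96), EMP1 (0.94) and NCSTN (0.93) were most like ABCC2, and TRIM52-AS1 (−0.95), LMO4 (−0.94) and TMEM129 (−0.94) were most unlike it. Of these 6, CAPRIN2 and TRIM52-AS1 were still among the 6 without high-dose replicate 2.

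Among 41 other ABC family genes, 26 could be tested and 1 was a DEG at the high dose, beside 2.93% of all genes. ABCG1, which exports cholesterol to lipoproteins, was upregulated from 4.63 ± 0.28 to 7.70 ± 0.91 CPM (SD, n = 3), a log2 fold change of 0.75 ± 0.10 (SE, adjusted p = 0.00108). ABCG1 missed the threshold when the vehicle and high-dose libraries were fitted alone with edgeR (adjusted p = 0.0553), but not with DESeq2. The porphyrin transporter ABCB6 was higher by 0.48 on the log2 scale (26.6 to 37.1 CPM, adjusted p = 0.00228) and under the minimum fold. Also under the minimum fold were 2 genes named after their values were seen. TAP2, part of the peptide transporter for MHC class I, was higher (0.38, adjusted p = 0.0078). CFTR, the apical chloride channel, was lower (−0.44, adjusted p = 0.00995). The median of the 26 was 0.09 at the high dose. The 15 that could not be tested had at most 13 counts in any library, among them ABCB4, the phospholipid pump closest to ABCB1, and the bile salt pump ABCB11.

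Of 14 genes known to control transporter genes, 12 could be tested. None was a DEG at any dose with edgeR or DESeq2. Over all genes, edgeR called 2.93% at the high, 0.676% at the medium and 0.111% at the low dose, so none of 12 is close to these shares. At an unadjusted p under 0.05 in edgeR there were 2 at the high and 1 at the medium dose. NFE2L2, which encodes NRF2, was at 0.23 (adjusted p = 0.137) and CEBPB at 0.37 (adjusted p = 0.178) on the log2 scale at the high dose. AHR, named after its values were seen, was at −0.05 (adjusted p = 0.777). NR1I2 (PXR) and NR1I3 (CAR) reached at most 9 and 4 counts in a library and were not tested.

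Of 13 tested response genes of AhR, PXR, CAR, NRF2 or bile acids, 8 were upregulated at the high dose, beside 1.26% of all genes. At the medium dose 4 were and at the low dose 3, and none was downregulated. The list was chosen with earlier results of these data known and is not independent evidence of its direction. CYP1A1, the main inducible enzyme of AhR, went from 0.285 ± 0.153 CPM to 3.78 ± 1.87 at the low, 89.9 ± 4.70 at the medium and 98.3 ± 5.51 at the high dose, a log2 fold change of 8.29 ± 0.35 (adjusted p = 4.89e-08). CYP1B1 (2.81, adjusted p = 5.54e-07) and TIPARP (1.51, adjusted p = 9.54e-07), also AhR targets, were DEGs at every dose. FGF19, a bile acid responsive hormone, was higher by 0.76 at the high dose (adjusted p = 3.59e-05). The other 4, named after their values were seen, were the NRF2 targets HMOX1 (1.09), NQO1 (0.89), GCLM (0.75) and TXNRD1 (0.72). Not DEGs at the high dose, and also named after their values were seen, were AHRR (0.17, adjusted p = 0.696) and CYP2B6 (0.41, adjusted p = 0.114). SRXN1 (0.43, adjusted p = 0.00228) was under the minimum fold. SLC51A (−0.001) and SLC51B (−0.33, adjusted p = 0.689) were not DEGs either, at means of 0.42 and 0.39 CPM at the high dose. CYP3A4, also in the list, reached at most 3 counts in a library and was not tested. CYP1A1 was near its high-dose level at the medium dose already. ABCC2 was at 0.77 at the medium and 1.17 at the high dose, and ABCC3 at 0.43 and 0.50. Any link between CYP1A1 and these transporters was not tested.

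Of the enzymes that make conjugates for export, 24 of the 35 matched genes could be tested. At the high dose 2 were upregulated, beside 1.26% of all genes. UGT1A6, a glucuronosyltransferase, was higher by 0.81 ± 0.12 (adjusted p = 0.00156) and GCLC, which encodes the catalytic subunit for glutathione synthesis, by 0.77 ± 0.06 (adjusted p = 2.31e-05). UGT1A6 was also a DEG at the medium dose (0.66, adjusted p = 0.0198), but not without any one of the vehicle or medium-dose libraries (log2 values of 0.61 to 0.70), and at the high dose it missed the threshold when the 2 groups were fitted alone with edgeR (adjusted p = 0.0559), but not with DESeq2. UGT1A genes share their last exons, so the counts of any one of them are uncertain. None of the 8 genes for membrane anchors and trafficking, which hold transporters at the cell surface, was a DEG at any dose with edgeR or DESeq2. Over all genes, 2.93% were at the high dose in edgeR. Of the 8, 3 had an unadjusted p under 0.05 at the high and 1 at the medium dose in edgeR. Among them, RDX (radixin, which tethers ABCC2) was at 0.23 (adjusted p = 0.0847) and NHERF1 at −0.17 (adjusted p = 0.233).

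Of 24 other carriers of drugs and organic ions, 14 could be tested and 2 were upregulated at the high dose, beside 1.26% of all genes. SLC22A3, which takes up organic cations, went from 6.61 ± 0.38 to 17.4 ± 1.49 CPM (1.40 ± 0.10, adjusted p = 7.02e-06) and was a DEG at the medium dose too (1.29, adjusted p = 3.54e-05). SLC47A2, which exports organic cations in exchange for protons, went from 0.437 ± 0.236 to 1.54 ± 0.60 CPM (1.77 ± 0.37, adjusted p = 0.0145). SLC47A2 was no longer a DEG when high-dose replicate 1 (1.59, adjusted p = 0.053) or 3 (1.66, adjusted p = 0.0611) was left out, or when the vehicle and high-dose libraries were fitted alone with edgeR (adjusted p = 0.157). Among the marker lists, CEACAM5 of the colon epithelium (0.70, adjusted p = 0.0132) and ITGAM of leukocytes (0.77, adjusted p = 0.0473) were DEGs at the high dose. CEACAM5 lost the call without high-dose replicate 1 (0.57) or vehicle replicate 2 (0.60) and with edgeR on the 2 groups alone (adjusted p = 0.124), and ITGAM lost it in 10 of the fits that left out a library. CDX2 (0.40, adjusted p = 0.0521) and CD68 (0.57, adjusted p = 0.0151) were not DEGs, and the fibroblast genes COL1A1 (adjusted p = 0.955) and LUM (adjusted p = 0.23) were not either.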

How the data were processed

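HT29 libraries were prepared with a directional kit and sequenced as paired-end reads. The deposited values are expected counts, which the authors estimated with RSEM from the GRCh38.84 annotation after trimming and STAR alignment. The submitters' processing notes name FastQC 0.11.9, Trim Galore 0.6.5, STAR 2.7.3a and RSEM 1.3.3. The strand setting of RSEM is not given in the sources used here. Values were rounded to whole numbers.

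All 12 libraries were fitted together by the quasi-likelihood method of edgeR 4.0.16 under R 4.3.3 (TMM, filterByExpr, robust), without covariates. P-values were adjusted over 15374 genes at each dose by Benjamini–Hochberg, and a DEG passed 0.05 and a fold of 1.5. The biological coefficient of variation was 11.2%. Each SE from edgeR is the absolute log2 fold change over the square root of the quasi-likelihood F statistic. CPM used TMM library sizes, and log2 CPM a prior count of 2. Lengths, GC content and coordinates came from canonical transcripts of GENCODE 44 (GRCh38), not from RSEM's effective lengths, and 93.2% of the IDs were found there. No transporter gene shares exonic bases with another gene in it. No libraries were duplicates. Fits were tested on simulated data, and DESeq2 1.42.0 was an alternative.

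The transporters and gene lists were chosen with earlier results of these data known. All 7 transporters are named. Of each other list, up to 4 high-dose DEGs are named by smallest p, or the 2 genes of smallest p where fewer than 2 were DEGs. For ABCC2, with the largest fold change, the 3 genes highest and 3 lowest in correlation are named. UGT1A3 could not be matched to an ID.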

Additional observations from a re-analysis of the deposited data

How the results depend on the processing

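The 1 transporter past the thresholds at the high dose became 0 with edgeR or DESeq2 on these 2 groups alone, with at least 10 counts in every library, and with a replicate block. It became 2 with no minimum fold change and with DESeq2 without high-dose replicate 2, which was chosen after seeing the data, and ranged from 0 to 2 when single libraries were left out. No transporter was past them at the medium or low dose under any alternative. The log2 fold change of ABCC2 at the high dose ran from 0.95 to 1.48 over 22 alternatives that kept the minimum fold change and was called in 15, and that of ABCC3 from 0.41 to 0.67 over 23 and was called in 2. The 15 genes of the other lists at the high dose became 9 with edgeR on 2 groups, and the 6 at the medium dose became 11 with no minimum fold change. The 451 DEGs over all genes at the high dose became 172 with edgeR on 2 groups, 299 with DESeq2 on 2 groups, 887 with no minimum fold change and 768 without high-dose replicate 2. The 104 at the medium dose ranged from 52 to 249 and the 17 at the low dose from 10 to 109. Of the 6 genes most like or unlike ABCC2, 2 remained without high-dose replicate 2. ABCC3 lay 4.38 times above the next gene over the vehicle libraries and 4.64 times in replicate 2 alone. The causes of these shifts were not tested. Same-numbered libraries of different groups deviated together only weakly (18 correlations from −0.264 to 0.139), so the numbers were not treated as pairs, and the replicate block gave ABCC2 1.15 ± 0.30 and 379 DEGs. Among the named genes other than the transporters, 30 values lost and 14 gained a call, and 0 called values changed sign.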
